A study of Mus musculus with 4 samples.

Results

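Among the monocytes and macrophages of the mouse colon, 413 barcodes were selected for the highest summed expression of Stab1, Npl, Dnase1l3 and Stmn1, and these are described here as members. A barcode is the tag that marks the transcripts of a single droplet, which as a rule holds a single cell. Barcodes were eligible when they had at least 1000 UMIs (unique molecular identifiers, each a counted transcript molecule), at least 317 genes, a mitochondrial share of up to 7%, under 20% immunoglobulin UMIs and no UMI of Folr2. The score of a barcode was the sum over the 4 genes of ln(1 + CP10k), where CP10k is the number of UMIs per 10000 UMIs of that barcode, and the top 10% of the eligible barcodes over all mice were taken. Of 6954 barcodes in all, 4543 passed the limits on UMIs, genes, mitochondrial and immunoglobulin share, 414 of these held a Folr2 UMI, and 4129 were eligible. The members were 130 barcodes of DEP 11, 68 of DEP 13, 101 of PBS 2 and 114 of PBS 3. The other 3716 eligible barcodes are called other barcodes below. Cells of other lineages were not removed from them, and 5.06% held 2 or more UMIs of dendritic cell genes and 1.96% of T cell genes. The members were selected on measured values, so everything that sets them apart from the other barcodes within the same cells is given as a description, with no test.

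The 4 mice were male C57/Bl6N mice, a wild-type laboratory strain, and the sources used here give no age. The mice named DEP 11 and DEP 13 were gavaged with 12 µg of diesel exhaust particles in 200 µL of phosphate-buffered saline on 5 days of each week over roughly 6 months. PBS 2 and PBS 3, the controls, were gavaged with the saline only. From the lamina propria of each colon, cells positive for CD11b and for either Ly6C or CD64 were sorted, and every mouse was run as a library of its own.

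Intestinal macrophages are replenished to a large extent by blood monocytes, which on entry lose Ccr2 and Ly6c2 and gain complement C1q, MHC class II and scavenger receptors. Mature macrophages of the gut wall clear dying cells and debris, keep the epithelium supplied with growth signals and respond little to bacterial products. The genes of the score belong to such clearance and to cell division. Stab1 encodes stabilin-1, an endocytic scavenger receptor of macrophages and sinusoidal endothelium. Npl encodes N-acetylneuraminate pyruvate lyase, which degrades sialic acid, and Dnase1l3 a secreted nuclease that digests DNA of dying cells. Stmn1 encodes stathmin, which destabilizes microtubules and is abundant in dividing cells.

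The libraries held between 4489342 UMIs (DEP 13) and 10293703 UMIs (PBS 2). The median member had 7735 and 7943 UMIs in DEP 11 and DEP 13 and 9023 and 7430.5 in PBS 2 and PBS 3, and the median other barcode 5070, 5548, 7004 and 5160 UMIs in the same order. Members were therefore deeper than the other barcodes in every mouse, which raises any share of barcodes with a UMI. Shares were for that reason also computed after every barcode had been thinned to 1000 UMIs. The names of the barcodes run in serial order from 1 to 6915 and so are placeholders. Of these names, 36 occurred in more than 1 library, on 75 barcodes of which 4 were members, and the sources used here do not say whether a repeated name stands for the same original barcode.

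The rule joined cells with different combinations of the score genes. Dnase1l3 had a UMI in 353 of 413 members (85.5%), Stab1 in 318 (77.0%), Npl in 258 (62.5%) and Stmn1 in 138 (33.4%). The commonest combination was Stab1, Npl and Dnase1l3 without Stmn1, in 125 members, and all 4 genes were found together in 33. At the other end, 12 members held UMIs of a single score gene. The label Stab1+ Npl+ Stmn1+ thus describes the summed score and not most single cells, and Dnase1l3, which the label leaves out, was the gene found in the largest share of members. Ms4a7, a membrane protein gene of mature macrophages that was not part of the score, had a UMI in 404 members (97.8%).

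The score had no gap at the limit. The lowest score of a member was 2.556, and the highest score of another barcode was also 2.556. Within 0.25 of the limit lay 86 members above it and 106 other barcodes below it, while the median member scored 3.29 and the highest 7.05. Of the other barcodes, 53.3% scored 0.

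Levels of the score genes in the members, from which they were chosen, were close among the 4 mice for 3 of the genes. Stab1 (ENSMUSG00000042286, chr14:31139013-31168641 in mm10) stood at 1.87 and 1.90 CP10k in DEP 11 and DEP 13 and 1.96 and 1.92 in PBS 2 and PBS 3. Npl (ENSMUSG00000042684, chr1:153503015-153550045) was at 1.35, 1.78, 1.28 and 1.31 CP10k, and Dnase1l3 (ENSMUSG00000025279, chr14:7964533-7994573) at 4.48, 4.83, 3.58 and 3.69 CP10k in the same order. Stmn1 (ENSMUSG00000028832, chr4:134468320-134473843) varied most, with 2.94 and 1.08 CP10k in DEP 11 and DEP 13 and 2.07 and 1.94 in PBS 2 and PBS 3. DEP 13 was the low mouse for Stmn1, and it had a Stmn1 UMI in 22.1% of its members against 32.5% to 37.6% in the other mice.

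The promoter of Stab1 is shown because Stab1, a macrophage receptor gene, is part of the score. It covers the 250 bases before the start of the gene, chr14:31168642-31168891 on the minus strand, written 5′ to 3′ in RefSeq's GRCm38.p6 table. Capitals mark the letters GAGGAA, a core sequence of sites for the myeloid transcription factor PU.1. The match ends 25 bases before the start. GAGGAA was searched on both strands, and 23.3% of the 32817 promoter windows of this length held it, so its presence is common.
Stab1: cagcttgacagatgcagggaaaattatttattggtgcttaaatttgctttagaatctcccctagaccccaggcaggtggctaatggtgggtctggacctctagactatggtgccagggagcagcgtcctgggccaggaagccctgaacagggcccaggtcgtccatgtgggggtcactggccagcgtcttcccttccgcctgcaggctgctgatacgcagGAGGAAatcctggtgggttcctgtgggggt

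In members, genes of differentiated macrophages were higher and genes of monocytes lower than in the other barcodes. Such a shift was also found in other groups of barcodes, which are compared below, so it does not set the members apart from these. A gene counted as detected when at least 5% of members or of other barcodes held a UMI, so a gene that passed through 1 of these sets alone leans toward it. Among the pathway and state lists, that was the case for 1 macrophage core, 1 monocyte, 1 scavenger receptor, 4 type I interferon and 2 oxidative stress and aryl hydrocarbon receptor genes, beside the cycle genes. All 17 genes of the macrophage core list were higher in members in 4 of 4 mice, against 17.0% of the 7489 detected genes in the whole table, and their median log2 ratio was 0.46 (all genes 0.02). Ratios here are of CP10k + 0.1 in members to that in other barcodes, as the median over the 4 mice, which understates the ratio of low genes. C1qa, a subunit of complement C1q, was at 70.7, 55.7, 65.8 and 55.7 CP10k in the members of DEP 11, DEP 13, PBS 2 and PBS 3, and at 38.5, 35.3, 42.3 and 35.8 in the other barcodes. Apoe, a lipid carrier of macrophages, stood at 366 to 459 CP10k in members against 233 to 302. For both genes the lowest mouse of the members lay above the highest mouse of the other barcodes. Of 11 detected monocyte genes, 10 were lower in all 4 mice (15.8% of all detected genes were), with a median log2 ratio of -1.95. The receptor gene Ccr2, which brings monocytes out of the bone marrow, was at 1.63 to 2.40 CP10k in members against 4.95 to 6.21. Ly6c2, which encodes the Ly6C of the sort, was at 0.126 to 0.737 CP10k against 1.61 to 2.53. By summed C1qa, C1qb and C1qc level, 93.5% of the members lay in the upper 50% of the eligible barcodes.

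At the lower end of the whole table, the 5 genes of the naming rule were S100a4, a calcium-binding protein gene of motile cells (log2 ratio -3.00), the gene Gm9733 (-2.70), Chil3, a chitinase-like protein of monocytes (-2.40), Ifitm6 (-2.39) and Plac8 (-2.35). S100a4 fell between 0.343 and 0.886 CP10k in the members of the 4 mice and between 3.29 and 4.09 in the other barcodes. These groups did not overlap, which the choice of the gene with the lowest ratio of the whole table favours.

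At the upper end, the 10 genes with the highest ratio, score genes left out and detection in 10% of members required, were Ccl8, 5 histone genes, Birc5, Top2a, Tk1 and Apol7c. Ccl8 (ENSMUSG00000009185, chr11:82115185-82116799), which encodes a chemokine of tissue macrophages, was at 11.8 and 16.7 CP10k in DEP 11 and DEP 13 and 8.60 and 6.70 in PBS 2 and PBS 3, against 2.79, 3.30, 2.76 and 1.69 in the other barcodes. The lowest mouse of the members lay above the highest mouse of the other barcodes, which the choice of the highest ratio favours. The median log2 ratio was 1.98. Apol7c, a gene of the apolipoprotein L family, was at 6.82, 6.12, 3.29 and 2.18 CP10k in members and at 1.08 to 1.79 in the other barcodes (log2 ratio 1.54). The histone genes (Hist1h2ao, Hist1h2ap, Hist1h2ac, Hist1h2ak and Hist1h2ai, log2 ratios of 1.51 to 1.88) are near-identical copies between which reads can be split, so the single values are uncertain. Birc5, Top2a and Tk1, which serve chromosome segregation, DNA untangling and thymidine salvage, had log2 ratios of 1.84, 1.81 and 1.64. A UMI of these 3 was found in 10.4%, 10.7% and 10.4% of members and in 2.23%, 2.45% and 2.18% of other barcodes. Stmn1, a gene of dividing cells, was part of the score. Members without a Stmn1 UMI had Top2a at 0.0376, Birc5 at 0.0470, Hist1h2ap at 0.423 and Hist1h2ao at 0.399 CP10k. The other barcodes had 0.0587, 0.0564, 0.724 and 0.604 CP10k in the same order.

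**Figure D1:**
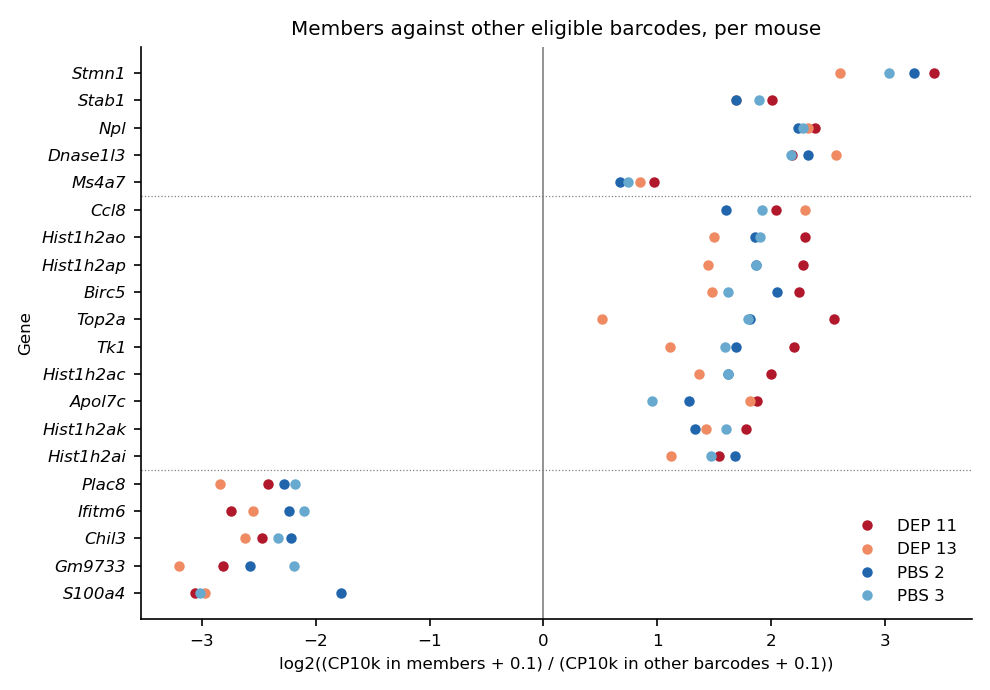
Log2 ratio of the level (CP10k + 0.1) in members to that in the other barcodes (x axis) for the 5 markers, the 10 highest and the 5 lowest genes of the naming rule (y axis), with 1 point per mouse. The 4 score genes and Ms4a7 stand at the top, and the points of Top2a spread most widely, with DEP 13 lowest and DEP 11 highest.

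The genes with roles like those of the score genes moved less uniformly. Of 12 detected scavenger and uptake receptor genes other than Stab1, 7 were higher in members in all 4 mice and 2 lower, with a median log2 ratio of 0.48. Axl, a receptor for dying cells, was at 1.47 to 1.92 CP10k against 1.0 to 1.19, and the mannose receptor gene Mrc1 at 1.70 to 2.19 against 1.24 to 1.66. Mertk and Msr1 were also higher in 4 of 4 mice, whereas Lrp1 and Scarb1 were lower, and Marco and Tyro3 had no UMI in members. Of the 10 detected genes of sialic acid and amino sugar metabolism other than Npl, 4 were higher in all mice (Nagk, Renbp, Nans and Ctsa) and none was lower in all 4, with a median log2 ratio of 0.13. Ctsa, which protects sialidase in the lysosome, was at 5.37 to 6.14 CP10k against 4.49 to 4.72, and Renbp at 0.651 to 1.08 against 0.574 to 0.651. Of 7 other detected nuclease genes, Dnase2a, which digests DNA in lysosomes, and Pld3 were higher in all 4 mice and Samhd1 lower, so that the list had a median of -0.00. The ribonuclease genes Rnaset2b (4.80 to 5.58 CP10k against 4.77 to 5.50) and Rnaset2a (4.26 to 5.23 against 4.38 to 5.17), near-identical copies with uncertain single values, were the highest of that list. In the Ms4a family, Ms4a7 was the only 1 of 9 detected genes that was higher in all 4 mice, with 21.0 to 25.7 CP10k against 12.3 to 15.3, and 5 were lower. Ms4a6c, the next highest in level, was at 8.42 to 9.28 CP10k against 10.6 to 11.8, and Ms4a4c stood at 0.879 to 1.58 CP10k against 3.28 to 4.26.

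Lysosomal and antigen presentation genes were moderately higher. Of 20 lysosome genes, 16 were higher in members in all 4 mice and Ctsd was lower, with a median log2 ratio of 0.26. Psap, the precursor of the saposins, was at 38.9 to 49.4 CP10k against 38.7 to 46.4, and the protease gene Ctsb at 22.8 to 26.3 against 16.4 to 18.5. Cd63, a tetraspanin of late endosomes, stood at 12.0 to 14.9 CP10k against 6.31 to 7.97. Of 8 detected MHC class II genes, 7 were higher in 4 of 4 mice (median 0.28), led in level by Cd74, with 517 to 572 CP10k against 424 to 456. H2-Ab1, an MHC class II chain, stood at 206 to 247 CP10k against 154 to 200. Genes of the type I interferon response were more often lower, with 10 of 23 lower and Bst2 higher in all 4 mice (median -0.32). Ifi27l2a was at 4.40 to 9.44 CP10k against 10.2 to 15.1, and Ifitm3 at 4.66 to 7.01 CP10k against 18.6 to 21.2. Among 19 inflammatory genes, Cxcl1 was higher in 4 of 4 mice and 7 were lower (median -0.26), among them Nfkbia, the inhibitor of NF-kappaB, at 3.73 to 5.20 CP10k against 6.09 to 9.51. Il1b, the gene of interleukin-1 beta, was at 22.7 to 26.9 CP10k against 23.3 to 39.3, and the chemokine gene Ccl4 at 8.31 to 14.2 against 10.1 to 14.4. Among 20 genes of tissue dissociation and heat shock, 10 were lower and none higher in all 4 mice (median -0.23), with Fos at 25 to 27.8 CP10k against 27.8 to 36.0 and Hspa1a at 9.20 to 20.8 against 13.1 to 27.0. Of 11 detected genes that respond to oxidative stress or to the aryl hydrocarbon receptor, 4 were higher and 3 lower in 4 of 4 mice (median -0.09). Prdx1, a peroxidase gene, was at 7.28 to 10.8 CP10k against 5.87 to 8.51, Nfe2l2 at 2.43 to 2.95 against 2.56 to 3.04, and the receptor's classical target genes Cyp1a1 and Cyp1b1 had no UMI in members.

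Colonic macrophages carry several further programmes, and the members were set beside 3 other groups of barcodes. A group of the same size was taken by the same kind of score over Vcam1, Cd72 and Lilra5, a second over Ecm1, Acp5 and Pxdc1, and the third was the 414 barcodes with a Folr2 UMI. The members shared 101 barcodes with the first group (24.5% of each) and 141 with the second (34.1% of each). Each group was thus high by construction in its own score genes. Of the mucosal macrophage list, 10 of 11 genes were higher in members than in other barcodes in all 4 mice (median log2 ratio 0.84), Acp5, a lysosomal phosphatase gene, among them at 5.02 to 8.38 CP10k against 2.75 to 3.80 and Ecm1 at 4.33 to 6.73 against 2.19 to 3.20. Pooled over mice, Ecm1 stood at 5.65 CP10k in members, 9.23 in the Ecm1, Acp5 and Pxdc1 group, 4.49 in the Vcam1, Cd72 and Lilra5 group and 4.92 in the Folr2 barcodes. In the same order, Apoe was at 408, 462, 438 and 336 CP10k, against 262 in the other barcodes. Ly6c2 was at 0.525, 0.454, 0.476 and 0.84 (other barcodes 2.19), and S100a4 at 0.525, 0.435, 0.259 and 1.65 (other barcodes 3.64). For these genes both score groups were thus shifted further than the members. Ccl8 was highest in members, at 10.4, 5.84, 7.93 and 8.61 CP10k.

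Of 5 detected genes of Folr2-type resident macrophages, 4 were higher in members than in other barcodes in all 4 mice (median log2 ratio 0.60). Selenop, a selenium carrier, stood at 18.4 to 22.8 CP10k against 13.5 to 15.6 in the other barcodes. Pf4, a chemokine gene, stood at 9.16 to 13.7 CP10k against 4.32 to 5.96 in the other barcodes, and Gas6, the ligand of Axl and Mertk, at 0.194 to 0.384 against 0.129 to 0.235. Pooled, Pf4 was at 10.9 CP10k in members and 19.1 in the Folr2 barcodes. Lyve1, Cbr2 and Fcna were at 0.0088, 0.0469 and 0.0410 CP10k in members and at 0.17, 0.454 and 0.331 in the Folr2 barcodes. The level of Stab1 was 1.91 CP10k in members and 1.78 in the Folr2 barcodes, although the score did not choose the latter, and Apol7c was at 4.55 in members, 4.88 in the Ecm1, Acp5 and Pxdc1 group and 2.88 in the Folr2 barcodes. Mki67, the proliferation marker, was at 0.261 CP10k in members and at 0.0394 to 0.0849 in the other 3 groups, of which none was chosen with a gene of cell division, and members without a Stmn1 UMI had 0.0282. These differences between groups were not tested.

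**Figure D2:**
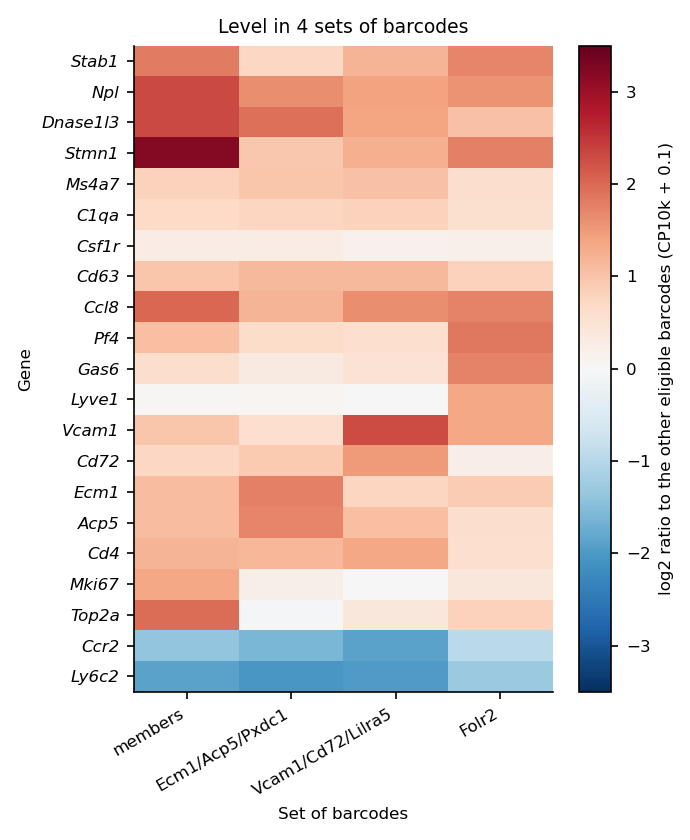
Colour gives the log2 ratio of the pooled level (CP10k + 0.1) in each of 4 sets of barcodes (columns) to that in the other eligible barcodes, for 21 genes (rows). Members were highest in Stmn1 and Npl, which are genes of their own score, and in Top2a, which was higher in members with a Stmn1 UMI. The Folr2 barcodes were highest in Pf4, Gas6 and Lyve1, and all 4 sets were low in Ccr2 and Ly6c2.

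Cells with many transcripts of cell division genes were a small fraction of the members, and they were found among those with Stmn1. Of 17 S phase genes 14 passed the detection limit, 11 of them through members only, and of 19 genes of G2 and M phase 10 passed, 9 of them through members only, so their counts and medians are not given and the levels summed over the whole lists are used. The S phase sum was 3.55 to 5.19 CP10k in the members of the 4 mice and 1.67 to 2.08 in the other barcodes. Pcna, the replication clamp, was at 0.918 to 1.20 CP10k against 0.553 to 0.650, and the tubulin gene Tuba1b at 3.21 to 6.25 against 2.51 to 2.99. The summed level of the G2 and M phase genes was 6.73 and 1.24 CP10k in the members of DEP 11 and DEP 13 and 2.92 and 2.87 in those of PBS 2 and PBS 3, against 0.743, 0.737, 0.464 and 0.582 in the other barcodes. DEP 11 was high and DEP 13 low. The members lay above the other barcodes in every mouse, but in DEP 13 a single member held 43 of the 69 UMIs. With the richest barcode of each set left out, DEP 13 had 0.481 CP10k in members and 0.556 in other barcodes, while the members of the other 3 mice kept 2.17 to 5.77 against 0.428 to 0.630. This excess was found in the 138 members with a Stmn1 UMI, a gene of dividing cells that the score itself holds. The 275 members without one had a G2 and M phase sum of 0.456 CP10k against 0.60 in all other barcodes and 0.471 in those without Stmn1, and an S phase sum of 2.01 against 1.98 and 1.94. Of 9 tubulin and microtubule genes other than Stmn1, 6 were higher in members in 4 of 4 mice (median log2 ratio 0.44). At least 5 UMIs of G2 and M phase genes were found in 31 members, and all 31 were among the 138 members with a Stmn1 UMI. Among the 3716 other barcodes there were 11 such cells. The 10 richest barcodes held 55.8% of all G2 and M phase UMIs of the members, so the group levels rest on few cells. After thinning to 1000 UMIs, 11.4% of members and 4.33% of other barcodes held a G2 or M phase UMI, against 37.5% and 22.4% before thinning.

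Members with and without a Stmn1 UMI differed in the cycle genes and less in the macrophage genes, which is a description, since Stmn1 was part of the score. Mki67 was at 0.943 and 0.393 CP10k in DEP 11 and DEP 13 and 0.349 and 0.671 in PBS 2 and PBS 3 among members with Stmn1, and at 0.0171 to 0.0366 among those without. The pooled level was thus higher with Stmn1 in each of the 4 mice, but Mki67 had a UMI in 22.5% of the members with Stmn1, and in 1.82% of those without. Pooled, Top2a (1.29 against 0.0376 CP10k), Birc5 (1.29 against 0.0470), Tuba1b (8.52 against 2.51) and Pcna (1.71 against 0.587) were higher with Stmn1. In contrast, Stab1 (1.53 against 2.15), Npl (0.826 against 1.73) and Dnase1l3 (2.87 against 4.82) were lower with Stmn1, which the summed score itself favours, since a barcode with Stmn1 needs less of the other genes. C1qa was at 61.5 CP10k with and 64.0 without Stmn1, and Ms4a7 at 21.0 and 25.6. Members with a Stmn1 UMI had a median of 8954.5 UMIs and those without 7450.

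**Figure D3:**
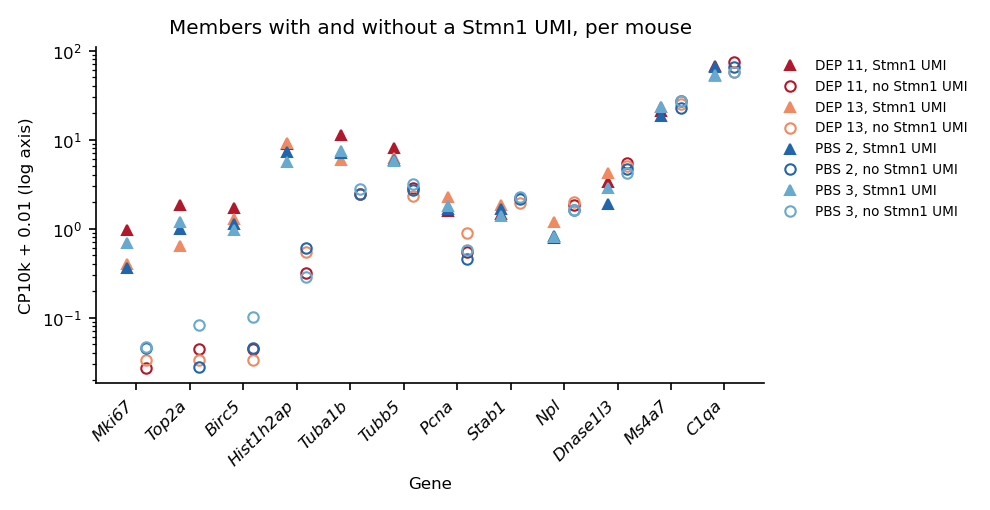
Level per mouse (CP10k + 0.01, log axis) of 12 genes (x axis) in members with a Stmn1 UMI (filled triangles) and without (open circles). The pooled levels of the cycle genes Mki67, Top2a and Birc5 were higher with Stmn1 in all 4 mice, whereas C1qa and Ms4a7 lay close together.

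The promoter of Top2a is shown as that of the G2 and M phase gene which stood among the 10 highest ratios. It spans chr11:99024190-99024439 on the minus strand (GRCm38.p6, 250 bases before the start), with capitals at each CCAAT, the box bound by the factor NF-Y, read on both strands.
Top2a: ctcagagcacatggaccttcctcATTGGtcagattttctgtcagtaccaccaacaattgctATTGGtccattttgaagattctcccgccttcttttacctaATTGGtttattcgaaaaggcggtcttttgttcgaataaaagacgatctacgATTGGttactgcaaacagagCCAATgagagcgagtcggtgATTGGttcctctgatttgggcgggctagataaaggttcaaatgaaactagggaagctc
The window held 6 matches, 5 of them on the opposite strand. Of the 16 genes of the G2 and M phase list with a promoter in the table, 14 held a CCAAT, against 33.8% of all 32817 windows. Neighbouring matches did not overlap, and a match is no proof of binding.

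Markers of other cell types ranged from absent to common in members. Plasma cell genes gave 2 or more UMIs in 84.0% of members and 75.7% of other barcodes, endothelial genes in 8.23% and 2.69%, and epithelial genes in 7.02% and 3.74%, at the lower depth of the other barcodes. Of the T cell list, 1 member held 2 or more UMIs (0.242%), and Cd3e had none, which with 0 of 413 members allows a share of up to 0.726% with a UMI. Its summed level was 0.0480 to 0.107 CP10k in members and 0.337 to 0.569 in other barcodes. Of the B cell list, 59 members (14.3%) held 2 or more UMIs against 6.70% of other barcodes, mostly of Cd79b and Bank1. After thinning, 7.51% of members and 6.81% of other barcodes held any B cell UMI. The summed B cell level was 0.592 to 0.983 CP10k in members and 0.693 to 1.22 in other barcodes. Of the endothelial list, Pecam1, which macrophages also express, was found, while Cdh5, Plvap, Ptprb, Emcn and Stab2 were at 0, and the summed level was 0.374 to 0.772 CP10k against 0.284 to 0.344.

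The neutrophil genes S100a8, S100a9, Retnlg, Cxcr2 and Ly6g were at 0 in members, and the summed level of that list was 0.229 to 0.359 CP10k against 0.321 to 0.436. Summed levels ranged from 0.103 to 0.126 CP10k for natural killer and innate lymphoid genes (Ncr1 and Prf1 at 0) against 0.124 to 0.211, from 0.0718 to 0.317 for dendritic cell genes (Zbtb46 and Itgae at 0) against 0.539 to 0.928, and from 0.0114 to 0.0768 for eosinophil and mast cell genes (Epx, Cpa3, Mcpt1 and Mcpt2 at 0) against 0.0323 to 0.0520. Stroma genes summed to 0.0768 to 0.0961 CP10k (Pdgfra at 0) against 0.0344 to 0.410. Epithelial genes differed by mouse, with 0.326 and 1.15 CP10k in the members of DEP 11 and DEP 13 and 0.203 and 2.14 in those of PBS 2 and PBS 3, against 0.366, 0.430, 0.280 and 1.19 in the other barcodes of the same mice. Plasma cell genes, chiefly Jchain, had a UMI in 92.7% of members and 90.0% of other barcodes. Their summed level in members was 5.97, 8.36, 3.49 and 12.1 CP10k, which followed that in the other barcodes of the same mouse (5.02, 8.11, 3.73 and 12.5).

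UMIs of the score genes were also found in barcodes of other cell types, where free RNA can give them. In 80 barcodes rich in immunoglobulin, with a median of 20942 UMIs, Stmn1 had a UMI in 16.3%, Stab1 in 35.0%, Npl in 12.5%, Dnase1l3 in 41.3% and Ms4a7 in 92.5%. In 39 barcodes with at least 5 T cell marker UMIs (median 2990 UMIs) the shares were 5.13%, 7.69%, 5.13%, 7.69% and 51.3%. The other barcodes had shares of 7.0% to 23.8% at a median of 5602 UMIs, between those of these sets for each score gene, and the members had higher shares than both. Since depths differed, levels were also compared. Stab1 was at 1.91 CP10k in members, 0.472 in other barcodes, 0.219 in the immunoglobulin-rich and 0.295 in the T cell barcodes, but at 1.44 in the 1614 barcodes under 500 UMIs (median 287.5). In those shallow barcodes Dnase1l3 was at 0.572 CP10k, Npl at 0.212 and Stmn1 at 0.254, against 4.09, 1.39 and 2.14 in members. Ms4a7 stood at 23.9 CP10k in members, 13.7 in other barcodes, 4.59 in the immunoglobulin-rich barcodes, 2.66 in the T cell barcodes and 5.47 in those under 500 UMIs. Doublets, droplets with more than 1 cell, were called at a score above 0.25 for 7 of the 413 members (1.69%) and for 152 of all 4543 scored barcodes (3.35%).

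The first question for the treatment was whether members were more frequent in the mice that received DEP. Their share of the eligible barcodes was 12.0% in DEP 11, with an exact 95% confidence interval from 10.2 to 14.1, and 11.9% in DEP 13 (9.37 to 14.9). Among the controls, PBS 2 had 9.18% (7.54 to 11.04) and PBS 3 had 8.27% (6.87 to 9.85). Both DEP mice lay above both PBS mice. The means were 12.0% ± 0.0906 (SD, n = 2) and 8.73% ± 0.643 (SD, n = 2), a difference of 3.25 percentage points with p = 0.333 in the exact two-sided permutation test (0.5 after adjustment over 3 such tests), which is the smallest p that 2 against 2 mice allow. The intervals cover counting error only. When the score was computed after thinning every barcode to 1000 UMIs, the shares were 9.91%, 11.2%, 10.2% and 9.43%, and the groups overlapped (difference 0.750 points, exact permutation p = 0.667). Without barcodes of 2 or more T, B or plasma cell UMIs, which left 14, 4, 32 and 3 members, the difference was -1.80 points, whereas it was 5.41 points with Folr2 barcodes kept, 5.26 with the score without Stmn1 and 6.30 within the upper C1q range. The share was thus not shown to differ between the treatments.

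**Figure D4:**
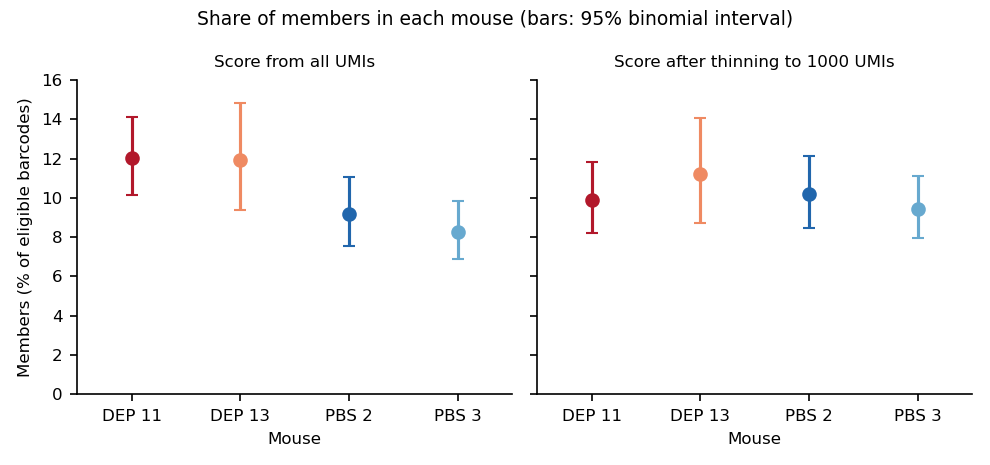
Members as percent of the eligible barcodes (y axis) in each mouse (x axis), with exact 95% binomial intervals, for the score from all UMIs (left) and from counts thinned to 1000 UMIs (right). On the left both DEP mice are near 12.0% and both PBS mice under 9.2%, and on the right the 4 mice overlap.

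For Ms4a7 and the cycle genes a difference was not shown either. After thinning, a Ms4a7 UMI was found in 82.3% and 83.8% of members in DEP 11 and DEP 13 and 86.1% and 88.6% in PBS 2 and PBS 3, lower by 4.30 points on average in DEP mice (exact permutation p = 0.333, adjusted 0.5). The summed Ms4a7 level did not separate the groups, at 2433 and 2487 CPM (counts of UMIs per 1e6 of the summed member UMIs) in DEP mice and 2102 and 2566 in PBS mice. A G2 or M phase UMI was found after thinning in 13.8% and 4.41% of members in the DEP mice and in 13.9% and 10.5% in the PBS mice (exact permutation p = 0.667, adjusted 0.667). DEP 13 alone was low, and the groups overlapped.

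Between DEP and PBS mice, 3 genes passed the test in the summed counts of the members, of 7411 tested (0.0405%), and 269 had an unadjusted p under 0.05. Apol7a (ENSMUSG00000010601, chr15:77388219-77399110) was at 92.1 and 133 CPM in DEP 11 and DEP 13 and 37.4 and 27.4 in PBS 2 and PBS 3. It rose in DEP mice with a log2 fold change of 1.78 (SE 0.29, edgeR quasi-likelihood adjusted p = 0.0322). Its neighbour Apol7c (ENSMUSG00000044309, chr15:77524852-77533316) was at 682, 612, 329 and 218 CPM and rose by 1.26 on the log2 scale (SE 0.21, edgeR adjusted p = 0.0322). Both genes were higher in both DEP mice than in either PBS mouse. They encode apolipoproteins of the L family, which bind lipid inside cells, and being close paralogues they may share reads, so their separate values are uncertain.

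The third gene was lower in DEP mice. Hspb1 (ENSMUSG00000004951, chr5:135887919-135889563), which encodes the small heat shock protein Hsp27, was at 6.72 and 19.7 CPM in DEP 11 and DEP 13 and 57.6 and 102 in PBS 2 and PBS 3, from 7, 11, 54 and 89 UMIs. The 2 groups did not overlap, and the log2 fold change was -2.76 (SE 0.44, edgeR adjusted p = 0.0322). Of all tested genes, 30.7% had groups that did not overlap, so this alone separates little. Without PBS 3 no gene was called (edgeR adjusted p-values of 0.313 to 0.410), with log2 fold changes of 1.62 for Apol7a, 1.04 for Apol7c and -2.24 for Hspb1, while 19 genes were called without PBS 2 and 15 without DEP 13. Without DEP 11, edgeR did not call Apol7c (log2 fold change 1.24, adjusted p = 0.103) or Hspb1 (-1.93, adjusted p = 0.335). No gene was called with at least 2000 UMIs per barcode, with the score without Stmn1 or with edgeR's filterByExpr either, where log2 fold changes were 1.59 to 1.78 for Apol7a, 1.13 to 1.26 for Apol7c and -2.85 to -2.70 for Hspb1. Other limits on the score moved the folds further. Among the top 5% of barcodes by score, edgeR gave 1.32 for Apol7a (adjusted p = 0.941) and 0.85 for Apol7c (adjusted p = 0.999), and called Hspb1 at -4.91. Apol7c was at 0.85 among the top 20% (edgeR adjusted p = 0.205) and at 0.89 with the Folr2 barcodes kept (edgeR adjusted p = 0.697), where Apol7a was not called either (1.61, edgeR adjusted p = 0.0936). With the thinned score, edgeR called Apol7c and Hspb1 but not Apol7a (1.65, adjusted p = 0.110).

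**Figure D5:**
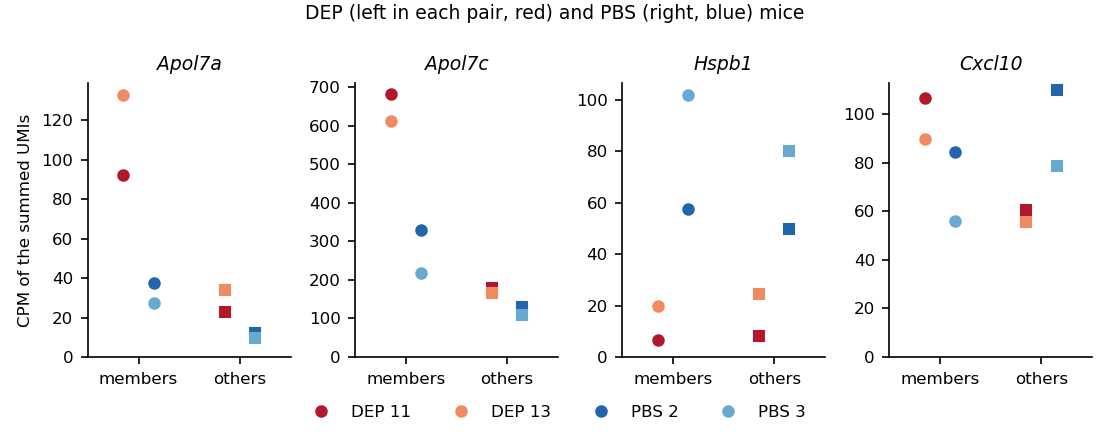
Summed level per mouse (CPM, y axes starting at 0) of Apol7a, Apol7c, Hspb1 and Cxcl10 in members (circles) and in the other barcodes (squares), with the DEP mice in red and the PBS mice in blue. Apol7c in members was at 682 and 612 in DEP mice and at 329 and 218 in PBS mice, and Cxcl10 had opposite orders in members and other barcodes.

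The promoter of Hspb1 is given because the gene was called and belongs to the heat shock list. The window is chr5:135887669-135887918 on the plus strand (GRCm38.p6, 250 bases before the start), and capitals mark GAANNTTC, the inverted repeat of heat shock elements, which reads the same on both strands.
Hspb1: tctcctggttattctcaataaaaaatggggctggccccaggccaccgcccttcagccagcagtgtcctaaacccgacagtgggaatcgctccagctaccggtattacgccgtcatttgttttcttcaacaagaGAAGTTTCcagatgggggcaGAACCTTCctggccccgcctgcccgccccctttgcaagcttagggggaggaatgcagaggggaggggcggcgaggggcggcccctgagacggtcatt
There were 2 matches, the first 117 to 110 and the second 97 to 90 bases before the start. Of all windows, 6.69% held a match, and of the 17 genes of the dissociation and heat shock list with a promoter in the table, 4 did.

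Other heat shock and early response genes leaned the same way without passing the test. Of the 20 genes of the dissociation and heat shock list, Hspb1 was the only 1 called in members, 18 had negative log2 fold changes and 9 had an unadjusted p under 0.05, with a median of -0.37 against 0.00197 over all tested genes. Dnajb1, a co-chaperone gene, was at 152 and 293 CPM in DEP mice and 382 and 815 in PBS mice (log2 fold change -1.44, edgeR adjusted p = 0.576). Bag3, another, was at 19.2 and 39.5 against 49.1 and 126 CPM (-1.67, edgeR adjusted p = 0.805). In the other barcodes 18 of the 20 were negative too, with a median of -0.41, and the difference between members and other barcodes was not tested for the list. Genes of this kind are also known to respond to tissue digestion, and the part of sample handling in these values was not tested.

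No gene of the other lists was called in members. Of 10 tested monocyte genes, 9 had negative values (median -0.46), Hp among them at 20.2 and 23.3 CPM in DEP mice and 48.0 and 45.7 in PBS mice (log2 fold change -1.12, edgeR adjusted p = 0.998). Of 10 G2 and M phase genes, 9 had positive values (median 0.78), but the level summed over the list was high in DEP 11 alone. It was 6.73 CP10k in DEP 11, where the 10 richest barcodes held 86.7% of these UMIs. DEP 13, at 1.24 CP10k, lay below PBS 2 and PBS 3 (2.92 and 2.87). Top2a was at 81.6 CPM in DEP 11 and 16.2 in DEP 13, against 39.5 and 49.2 in the PBS mice, so that the groups overlapped. Medians of the macrophage core (0.02), S phase (0.02), scavenger receptor (0.07), sialic acid (-0.00), lysosome (0.09), MHC class II (0.06), type I interferon (-0.10), inflammatory (-0.24) and oxidative stress and aryl hydrocarbon receptor (-0.08) lists lay within 0.25 of 0, as did those of the mucosal macrophage (0.20), tubulin (0.18), nuclease (0.04) and Ms4a (0.08) lists, and 4 of 5 resident macrophage genes had positive values (median 0.45). The score genes, whose sum chose the members at a limit common to all mice and which are therefore given as a description, had log2 fold changes of -0.03 (Stab1), 0.27 (Npl), 0.04 (Stmn1) and 0.37 (Dnase1l3), and Ms4a7 had 0.09 (edgeR adjusted p = 0.998).

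In the other barcodes, 0 of 6393 genes passed edgeR's test (0%), where the lowest adjusted p was 0.798 and 153 genes lay under 0.05 before adjustment, while the DESeq2 Wald test called 3, all lower in DEP mice: Hspa1a (adjusted p = 0.0112), Phlda1 (adjusted p = 0.00272) and Bag3 (adjusted p = 0.00180). In edgeR's main test these 3 failed the correction, while Phlda1 and Bag3 each passed in 5 of 8 alternatives, DESeq2 included, and Hspa1a in 2. With all mice and no gene filter, edgeR called Hspa1a (adjusted p = 1.91e-05), Phlda1 (adjusted p = 2.50e-09) and Bag3 (adjusted p = 2.61e-12). The genes of smallest p in each direction all failed the correction in edgeR's main test. Higher were Apol7a (log2 fold change 1.35), the processed pseudogene Gm10709 (1.14), whose reads may belong to its parent gene, and Il7r (1.11). Lower were Hspa1a (-0.86), Phlda1 (-1.37) and Bag3 (-1.71). With no gene filter, edgeR also called Apol7a (adjusted p = 6.89e-05), Gm10709 (adjusted p = 0.000613) and Il7r (adjusted p = 0.0185). In edgeR's main test of the other barcodes, Apol7c had a log2 fold change of 0.54 and Hspb1 of -2.10. Of all 6393 genes tested there, 27.6% had groups that did not overlap.

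Whether the response to DEP differed between members and other barcodes was tested as an interaction with the mouse as a block, and 2 of 6315 genes passed (0.0317%, with 307 at an unadjusted p under 0.05). Apol7c rose more in members, by 0.74 on the log2 scale (SE 0.13, edgeR adjusted p = 0.0144). Cxcl10 (ENSMUSG00000034855, chr5:92346638-92348889), a chemokine induced by interferon, was at 107, 89.7, 84.3 and 56.0 CPM in the members of DEP 11, DEP 13, PBS 2 and PBS 3 and at 60.7, 55.4, 110 and 78.7 CPM in the other barcodes. The DEP mice were thus the upper pair in members and the lower pair in the other barcodes. The log2 fold change was 0.51 in members and -0.70 in the other barcodes, a difference of 1.23 (SE 0.19, edgeR adjusted p = 0.00908), although neither fold change was called on its own. DESeq2 called no gene in this comparison.

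The promoter of Cxcl10 is printed for this opposite order. It covers chr5:92348890-92349139 on the minus strand (GRCm38.p6, 250 bases before the start), and capitals mark GAAANNGAA, a core of interferon-stimulated response elements, on either strand.
Cxcl10: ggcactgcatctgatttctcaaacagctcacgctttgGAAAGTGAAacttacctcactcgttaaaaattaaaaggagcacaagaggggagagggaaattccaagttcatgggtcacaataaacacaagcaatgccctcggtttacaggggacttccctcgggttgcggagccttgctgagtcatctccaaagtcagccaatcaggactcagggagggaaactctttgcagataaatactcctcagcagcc
The window had 1 match, and 7.12% of all windows had any. Of the 21 type I interferon genes with a promoter in the table, 10 held a match, and none of the 22 tested genes of that list was called in members.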

How the data were processed

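Single cells from the colon of 4 mice (2 DEP, 2 PBS) were profiled by droplet 3′ RNA sequencing. The deposited files hold UMI counts per gene and barcode, which the authors made with Cell Ranger and STAR 2.6.1a on mm10, per the submitters' processing notes, where R 3.5.1 is also named. The sources used here give no Cell Ranger version, annotation or barcode filter. Symbols came from GENCODE M21 and covered 28416 of 28692 gene IDs.

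Barcode limits, score and members were as given above. The members and gene lists were chosen with earlier results of these data known. Barcodes were thinned to 1000 UMIs with a fixed seed, and doublets were called per mouse with scrublet in scanpy 1.11.5 (expected rate 6%) at a fixed score limit of 0.25, set after seeing the data because the automatic limit of DEP 13 changed with floating point rounding. Named genes were the 10 highest and 5 lowest by median log2 ratio, in the same direction in 4 of 4 mice and detected in 10% or more of the higher set, without immunoglobulin genes and pseudogenes. From each test up to 5 called genes per direction were named, or, with none called, the 3 of smallest p, and from each list those of highest level. Any further gene was chosen after its values were seen. Some marker genes are not reported here.

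For DEP against PBS, counts were summed per mouse and tested with edgeR 4.0.16 (R 4.3.3) by the quasi-likelihood test with TMM scaling and Benjamini-Hochberg adjustment at 5%, on genes with a UMI in at least 5% of barcodes and at least 1 CPM in 2 mice. The mouse was the replicate, and p-values measure only the spread between 2 mice per group. The steps were tested on simulated counts with an assumed spread between mice. In members, 19 of 94 genes changed by 1 on the log2 scale were called (20.2%), and 87 of 106 changed by 2 (82.1%). For the interaction these were 14 of 98 (14.3%) and 74 of 102 (72.5%). False calls numbered 2 in members and 3 in the interaction, so many changes of this size would be missed. Alternatives were DESeq2 1.42.0, RLE scaling, the likelihood ratio test, other gene and barcode filters, other score limits and leaving out each mouse. The likelihood ratio test and the settings without T or B cell UMIs, without dividing cells and within the upper C1q range were added after seeing the data. Shares were compared by the exact two-sided permutation test (scipy 1.17.1) with exact Clopper-Pearson intervals. RefSeq promoters of GRCm38.p6 were searched for motifs on both strands.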

Additional observations from a re-analysis of the deposited data

Results flagged for a closer look

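In 2 genes the difference between DEP and PBS mice was itself different in members and in other barcodes, by a test of the interaction with the mouse as a block. For Cxcl10 the log2 fold change in members exceeded that in other barcodes by 1.23 (edgeR adjusted p = 0.00908). It was 0.51 in members and -0.70 in other barcodes, and it was positive in members and negative in other barcodes for both DEP mice against both PBS mice. For Apol7c the difference was 0.74 (edgeR adjusted p = 0.0144), with log2 fold changes of 1.26 in members and 0.54 in other barcodes. Over 8 alternatives, the Cxcl10 difference stayed past the threshold in 7 and that of Apol7c in 6, and DESeq2 called neither (adjusted p = 0.9997 for both). Without PBS 3 the Apol7c difference was 0.61 (edgeR adjusted p = 0.162).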

How the results depend on the processing

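The number of genes called between DEP and PBS mice in members, 3, was 17 with no gene filter, 5 with the thinned score, 1 with Folr2 barcodes kept, and 0 with edgeR's own filterByExpr, with at least 2000 UMIs per barcode, with the score without Stmn1 and without barcodes of 2 or more T, B or plasma cell UMIs. It was 2 to 4 under the other 8 alternatives that kept all mice (DESeq2 called 2, both among the 3). The same 3 genes were not always called: 1 of them was among the 3 called with the top 5% by score and the 3 called without DEP 11, and 2 were among the 4 called with the top 20% and the 5 with the thinned score. Leaving out 1 mouse gave 0 to 19 genes, with 0 without PBS 3, 3 without DEP 11, 15 without DEP 13 and 19 without PBS 2. The lone mouse of a group is there assumed to vary like the other group. In other barcodes, the count of 0 became 3 with DESeq2 and 55 with no gene filter, and ranged from 0 to 19 with a mouse left out (19 without DEP 11). The interaction count of 2 became 0 with DESeq2 and 7 with no gene filter, and ranged from 5 to 18 with a mouse left out.

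Of 19 alternatives, Apol7a and Apol7c each passed in 10, and Hspb1 in 13 of the 18 that tested it, with the direction kept in all. The difference in the share of members, 3.25 points, ranged from 2.79 to 3.70 with a mouse left out, and was -1.80 without barcodes of 2 or more T, B or plasma cell UMIs, which left 14, 4, 32 and 3 members. It was positive under the other 15 of 16 alternatives, at 0.750 to 6.30 points. The difference in the G2 and M phase share was -3.06 points, 0.113 with the top 20% by score, and -7.78 to 1.65 with a mouse left out (1.65 without DEP 13). For the Ms4a7 share it was -5.53 to -3.07 with a mouse left out. No paired analysis was possible because the replicate numbers of the DEP mice (11 and 13) and of the PBS mice (2 and 3) are not shared. Depth limits the genes under 1 CPM, which were not tested, and the 68 members of DEP 13 carried the fewest UMIs.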
